A study of Rattus norvegicus with 20 samples.

Results

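The metabotropic glutamate receptor genes Grm2, Grm3, Grm4, Grm5, Grm7 and Grm8 were followed in the arcuate nucleus of 20 female Sprague-Dawley rats. Members were the genes whose symbol, as given for probes that are not controls, is one of these 6 names. They were read by 7 of the 30367 probes of the array, 2 for Grm4 and 1 for each other gene, and all 7 were among the 19883 probes kept after a filter on dim probes. They make up 6 of 17086 genes.

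Each of the 5 groups held 4 rats, studied on postnatal day 15. SNS rats came from mothers given 2 saline injections on gestational day 15, had no spasms and were treated with saline. BNS, BYS, BYA and BYP rats all came from mothers given 2 injections of the synthetic corticosteroid betamethasone on that day, at 0.4 mg/kg each. BNS rats had no spasms and received saline. In BYS, BYA and BYP rats, infantile spasms were triggered by N-methyl-D-aspartate (NMDA) on postnatal days 12, 13 and 15, and by the labels they were treated on days 13, 14 and 15. BYS rats received saline, BYA rats the hormone ACTH, and BYP rats PMX53, an antagonist of the complement receptor C5ar1. BYS against BNS therefore holds the spasms and the NMDA together, BNS against SNS holds the prenatal betamethasone, and BYA and BYP against BYS hold the treatments. Up to 4 sisters shared a litter, and the litter of a sample was not given in the sources used here, so p-values measure the spread between these samples.

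Metabotropic glutamate receptors are G protein-coupled receptors with a large extracellular domain that binds glutamate, and they modulate excitability and transmitter release rather than open a channel themselves. The group I receptor Grm5 couples to Gq, phospholipase C and release of stored calcium, and it is mostly postsynaptic. The group II receptors Grm2 and Grm3 and the group III receptors Grm4, Grm7 and Grm8 couple to Gi/o, which lowers adenylyl cyclase activity, and many of them sit on axon terminals and dampen release. Grm3 is also found in astrocytes.

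The letters below show what the values of 5 of the 6 receptors were read from. Positions are those of the array files on rat build rn4, sequences run 5′ to 3′ in the sense of the transcript, and each probe is 60 bases long. The Grm7 probe covers chr4:147088377-147201215 on the plus strand and the Grm8 probe chr4:53976813-53983310 on the minus strand. Since these stretches are 112839 and 6498 bases long, both probes join exons across an intron, and so read spliced RNA. The Grm5 probe lies at chr1:144477224-144477283 on the plus strand. These 3 are printed whole.
Grm7: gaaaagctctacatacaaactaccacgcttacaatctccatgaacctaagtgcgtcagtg
Grm8: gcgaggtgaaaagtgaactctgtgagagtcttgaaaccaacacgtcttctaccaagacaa
Grm5: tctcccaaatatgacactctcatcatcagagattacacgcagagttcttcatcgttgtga

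The Grm2 probe (chr8:111838413-111838472, minus strand) and the Grm4 probes A_64_P163070 (chr20:5627795-5627854) and A_43_P15406 (chr20:5627750-5627809, both minus strand) are shown by 30 bases each. For Grm2 these are the first 30. For Grm4 they are the last 30 of the first probe and the first 30 of the second, and the capitals mark the 15 bases that the probes share, so that the readings are not independent of each other.
Grm2: tctgggatagagaggatggttactgtgggg
Grm4 A_64_P163070: agtgcctgggtgtttGGTGATGGTCTCTGA
Grm4 A_43_P15406: GGTGATGGTCTCTGAtgtgtagcatgtctg

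RNA of each rat carried Cy3 or Cy5, with 2 samples of each dye in a group, and 9 of the 11 arrays held 2 rats of the same group. Levels are log2 intensities after background correction and quantile normalization of the 20 channels, and a difference of 1 is a doubling. Each group lay on slides of its own, so slide and group cannot be told apart. Spots stood out from their background by a median ratio of 15.9 in BNS and also in BYS, against 9.13 in BYP, 7.48 in BYA and 6.89 in SNS. Grm2, Grm4, Grm5 and Grm8 were well above background in all 20 samples, Grm3 in 16 (2 of 4 in SNS and BYA) and Grm7 in 18 (3 of 4 in SNS and BYA). No receptor spot was saturated. Of 14 markers of arcuate neurons, 13 were kept, while Lepr was not. The lowest level over the samples was 13.76 for Agrp, 13.81 for Pomc and 14.02 for Npy. Of 6 pituitary genes, Gh1, Prl, Tshb and Pou1f1 did not pass. BYA replicate 3 shared its array with a male rat, and its Cy3 label, followed here, goes against the name of its array, so it may be that the channel read is the male's. No receptor was called in any comparison with or without this sample.

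No receptor passed the test between any 2 groups once p-values were adjusted. Over 6 genes and 10 comparisons, limma called 0 of 60 tests at an adjusted p under 0.05 (11.8% of all tests on the array were called), and 2 had an unadjusted p under 0.05 (23.4% of all tests). The lowest adjusted p was 0.0908. The share of all genes called was 28.6% for BNS minus SNS, 27.1% for BYS minus SNS, 31.3% for BYA minus SNS and 28.9% for BYP minus SNS. In the other comparisons few genes of the whole array were called, with 0.0293% for BYS minus BNS, 0% for BYA minus BYS, 0.0351% for BYP minus BYS, 0.158% for BYP minus BYA, 0.117% for BYA minus BNS and 1.5% for BYP minus BNS. These shares of all genes moved with the scaling and with the array. With each channel scaled to one median instead of to one distribution, 16.5% of all genes were called for BYP minus BYS. The shares were 8.46% for BYS minus SNS, 8.2% for BYA minus SNS and 15.5% for BNS minus SNS. That for BYP minus SNS hardly moved, at 28.7%. With the array, which 2 rats of a group mostly shared, as a random block (consensus correlation 0.365), the shares against SNS were 15.2% for BNS, 13.9% for BYS, 19.4% for BYA and 15.5% for BYP. No receptor was called in any comparison under either. At an unadjusted p under 0.05, 41.4% of all genes passed for BNS minus SNS and 13.6% for BYP minus BYA, the comparisons in which 1 receptor each did. The methods' t-test at 0.05 passed 1 receptor, Grm3 between BNS and SNS, beside 35.6% of all genes, and Grm3 also passed its fold threshold, beside 35%.

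**Figure D1:**
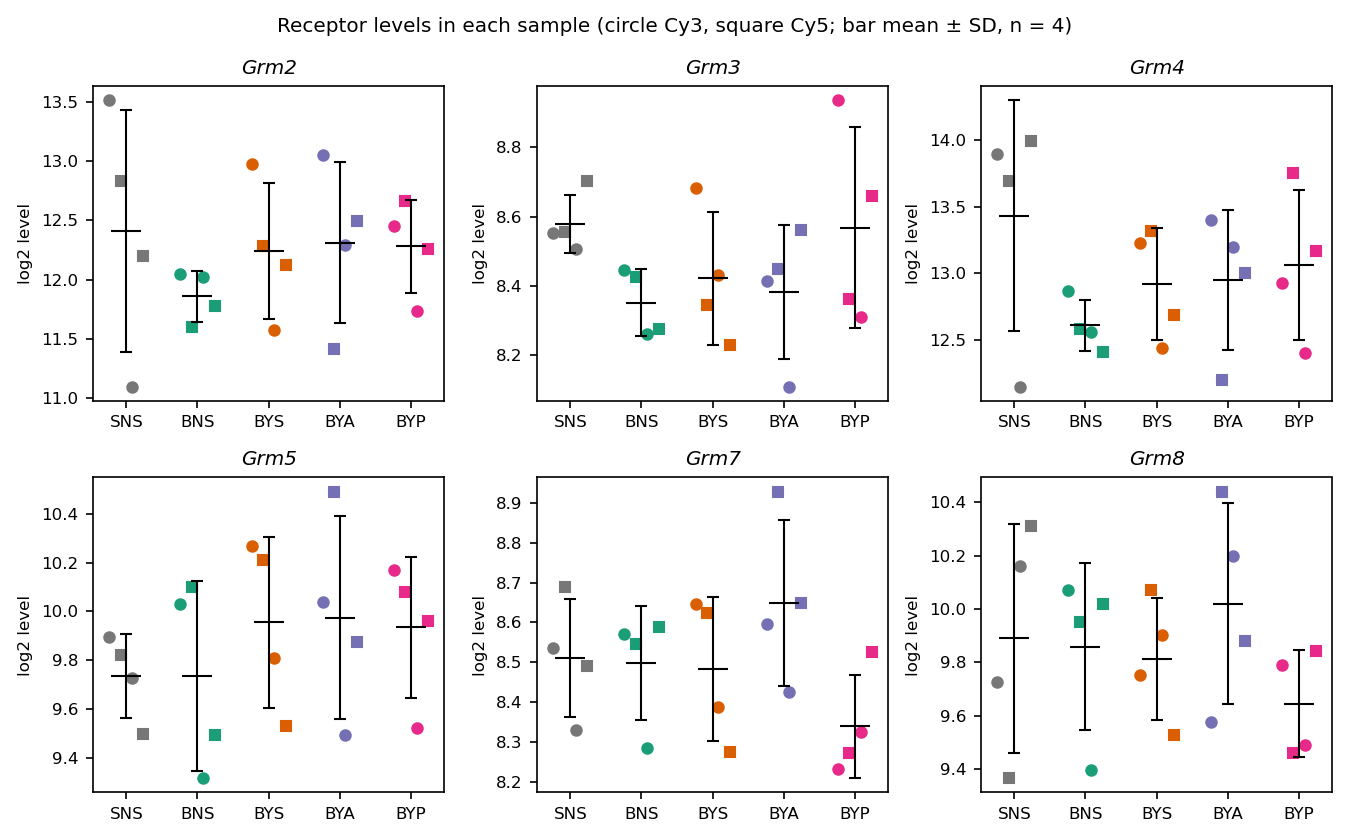
Log2 level of each receptor (vertical axis, 1 panel per gene, each with its own scale) in each sample of the 5 groups. Circles are Cy3 and squares Cy5 samples, and bars give the mean ± SD of 4 samples. Grm2 and Grm4 spread most, with SNS replicate 3 at the lowest level of all 20 samples for both, while the groups overlap in nearly every panel.

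Among the group II receptors, Grm2, a presynaptic autoreceptor, was spread widely within groups. Its log2 level was 13.51, 12.83, 11.10 and 12.20 in SNS replicates 1 to 4, and 12.05, 11.60, 12.02 and 11.78 in BNS. It was 12.97, 12.28, 11.58 and 12.12 in BYS, 13.05, 11.42, 12.29 and 12.49 in BYA, and 12.45, 12.66, 11.74 and 12.26 in BYP. The highest and the lowest of the 20 values were both SNS samples, on 2 arrays of 1 slide, and they lay 5.30-fold apart. BNS was the tightest group, with an SD of 0.214 (n = 4) against 1.02 (n = 4) in SNS. The order of the group means was SNS 12.41, BYA 12.31, BYP 12.28, BYS 12.24 and BNS 11.86, and no neighbours in it differed beyond their spread. The lowest p was for BNS minus SNS, at −0.55 on the log2 scale (95% interval −1.42 to 0.31, limma adjusted p = 0.322). It was −0.95 with each channel scaled to one median (adjusted p = 0.134). The interval of BYS minus BNS ran from −0.49 to 1.24, so a doubling was within it.

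Grm3, the group II receptor that glia share, was dim and close to the background. It was 8.55, 8.56, 8.51 and 8.70 in SNS and 8.45, 8.43, 8.26 and 8.28 in BNS, so that these 2 groups did not overlap. It was the only receptor and comparison of the 60 without overlap, while 33% of all genes do not overlap between BNS and SNS and 15.9% over the 10 comparisons. BYS held 8.68, 8.35, 8.43 and 8.23, BYA 8.42, 8.45, 8.11 and 8.56, and BYP 8.94, 8.36, 8.31 and 8.66. The means ran from 8.58 in SNS through 8.57 in BYP, 8.42 in BYS and 8.38 in BYA to 8.35 in BNS, with neighbours within their spread. BNS minus SNS was −0.23 on the log2 scale (95% interval −0.51 to 0.06, limma adjusted p = 0.210). The size of this difference depended on the processing, with −0.72 from the scanner software's processed signals (unadjusted p = 0.0173, limma adjusted p = 0.0897) and −0.105 with each channel scaled to one median (limma adjusted p = 0.699). Only 2 of the 4 SNS samples were well above background for this probe.

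Grm4, a group III receptor of axon terminals, gave the lowest adjusted p of the family. It is represented by the probe A_43_P15406, which had a value in every sample. SNS held 13.89, 13.69, 12.15 and 13.99, and BNS 12.87, 12.58, 12.56 and 12.41. BYS held 13.23, 13.32, 12.44 and 12.69, BYA 13.40, 12.20, 13.20 and 13.00, and BYP 12.93, 13.75, 12.40 and 13.17. In SNS, 3 samples lay above every BNS, BYS and BYA sample, with replicate 3 alone below them all. BNS minus SNS was −0.83 on the log2 scale (95% interval −1.58 to −0.07, unadjusted p = 0.0333, limma adjusted p = 0.0908). Under the array block the unadjusted p was 0.0969 and the adjusted p 0.24 (limma). It was −1.25 with each channel scaled to one median and −0.46 with the processed signals, with adjusted p of 0.0618 and 0.460. The means were SNS 13.43, BYP 13.06, BYA 12.95, BYS 12.92 and BNS 12.61, and neighbours did not differ beyond their spread.

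That result depends on which SNS samples are kept and on the probe. Without SNS replicate 3 the difference was larger, and limma called Grm4 lower than SNS in BNS (−1.25, adjusted p = 0.00617). It was also called lower in BYS (−0.94, adjusted p = 0.0312) and in BYA (−0.91, adjusted p = 0.0313), while BYP stood at −0.80 (adjusted p = 0.0578). Grm2 was called for BNS minus SNS as well (−1.04, adjusted p = 0.0362). Leaving out SNS replicate 1 moved the values the other way, to −0.18 for Grm2 (adjusted p = 0.770) and −0.63 for Grm4 (adjusted p = 0.24). The share of all genes called without SNS replicate 3 was 25.6% for BNS, 23.6% for BYS, 28% for BYA and 26.5% for BYP. These comparisons share the 3 remaining SNS samples. SNS replicate 3 had the lowest median ratio of signal to background of the 20 samples, 5.66, where SNS replicate 1 had 6.01. In this sample 57.5% of spots were well above background, in a group that ran from 51.6% to 74.9%. Over the 20 samples, the log2 of this ratio had r of −0.157 with Grm2 and −0.144 with Grm4 (permutation p = 0.509 and 0.541). The part of the signal in the low Grm2 and Grm4 levels of SNS replicate 3 was not tested.

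The other Grm4 probe, A_64_P163070, did not give the same direction. The scanner software marked its spot as an outlier in SNS replicates 1 and 2, which share an array, and these values were left out. The remaining SNS values were 12.56 and 13.41, against 13.48, 13.12, 13.49 and 13.32 in BNS. With this probe alone BNS minus SNS was 0.37 on the log2 scale, with an adjusted p of 0.453 by limma. With the 2 marked spots put back at 14.86 and 14.29, the SNS mean was 13.78 against 13.35 in BNS, which is the direction of the first probe. Over the 18 samples with both probes, r was 0.747 and rho 0.742 (permutation p = 0.00033 and 0.00082). SNS replicate 4 stood apart, ranked 1 of 18 on the first probe and 11 on the second, and without it r was 0.898 (n = 17, permutation p = 1e-05).

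**Figure D2:**
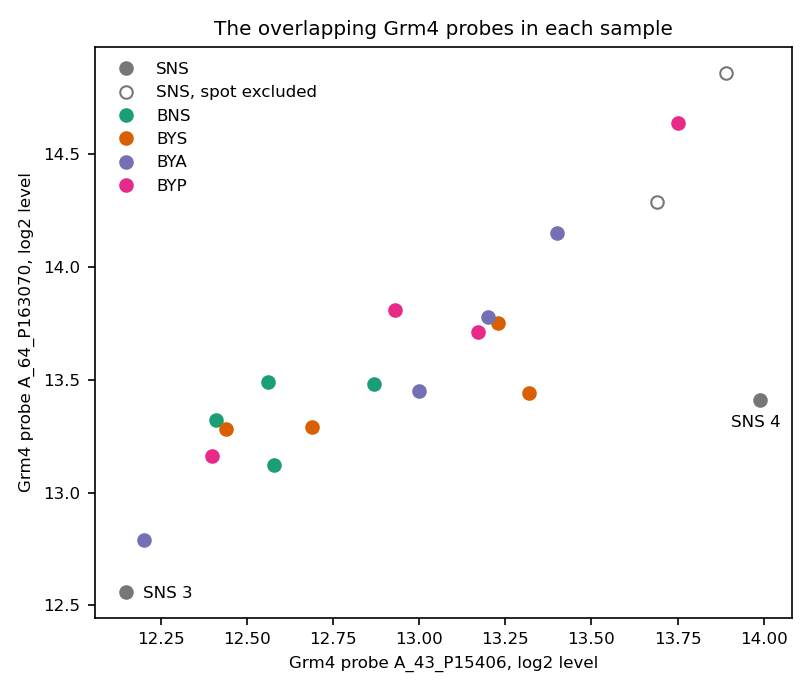
Log2 level of the probe A_64_P163070 (vertical) against A_43_P15406 (horizontal), 1 point per sample, coloured by group. Open circles are SNS replicates 1 and 2, whose spot of the vertical probe was marked as an outlier, and SNS replicate 4 lies to the right of the other points.

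Grm5, the group I receptor, lay in nearly the same range in every group. It was 9.89, 9.82, 9.73 and 9.50 in SNS, 10.03, 10.10, 9.32 and 9.49 in BNS, and 10.27, 10.21, 9.81 and 9.53 in BYS. BYA held 10.04, 10.49, 9.49 and 9.87, and BYP 10.17, 10.08, 9.52 and 9.96. Every pair of groups overlapped. The means were 9.97 in BYA, 9.96 in BYS, 9.94 in BYP, 9.74 in BNS and 9.74 in SNS. The 3 groups with spasms lay above both groups without, but BYS minus BNS was 0.22 on the log2 scale with a 95% interval from −0.25 to 0.69 (limma unadjusted p = 0.334). The lowest p was for BYA minus SNS, at 0.24 (95% interval −0.23 to 0.70, limma adjusted p = 0.431).

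Grm7, a group III receptor found in the active zone of axon terminals, varied least of the family between samples, and its probe was close to the background. It was 8.54, 8.69, 8.33 and 8.49 in SNS, 8.57, 8.55, 8.28 and 8.59 in BNS, and 8.64, 8.62, 8.39 and 8.28 in BYS. BYA held 8.60, 8.93, 8.42 and 8.65, and BYP 8.23, 8.27, 8.32 and 8.53. The means were BYA 8.65, SNS 8.51, BNS 8.50, BYS 8.48 and BYP 8.34, so the treated groups stood at both ends, with BYS between them. BYP minus BYA was −0.31 on the log2 scale (95% interval −0.55 to −0.07, unadjusted p = 0.0132, limma adjusted p = 0.236), and 1 BYP sample lay within the BYA range. The difference was −0.08 with each channel scaled to one median (limma adjusted p = 0.734) and −0.48 with the processed signals (limma adjusted p = 0.400). Against BYS, neither BYA (0.17, interval −0.07 to 0.40) nor BYP (−0.14, interval −0.38 to 0.09) passed at an unadjusted p under 0.05.

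Grm8, the other group III receptor, was 9.73, 9.36, 10.16 and 10.31 in SNS, 10.07, 9.95, 9.40 and 10.02 in BNS, and 9.75, 10.07, 9.90 and 9.53 in BYS. BYA held 9.58, 10.44, 10.20 and 9.88, and BYP 9.79, 9.46, 9.49 and 9.84. All groups overlapped. The order of the means, BYA 10.02, SNS 9.89, BNS 9.86, BYS 9.81 and BYP 9.65, was that of Grm7. BYP minus BYA was −0.38 on the log2 scale (95% interval −0.83 to 0.07, limma adjusted p = 0.456), and −0.59 with each channel scaled to one median (limma adjusted p = 0.215).

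**Figure D3:**
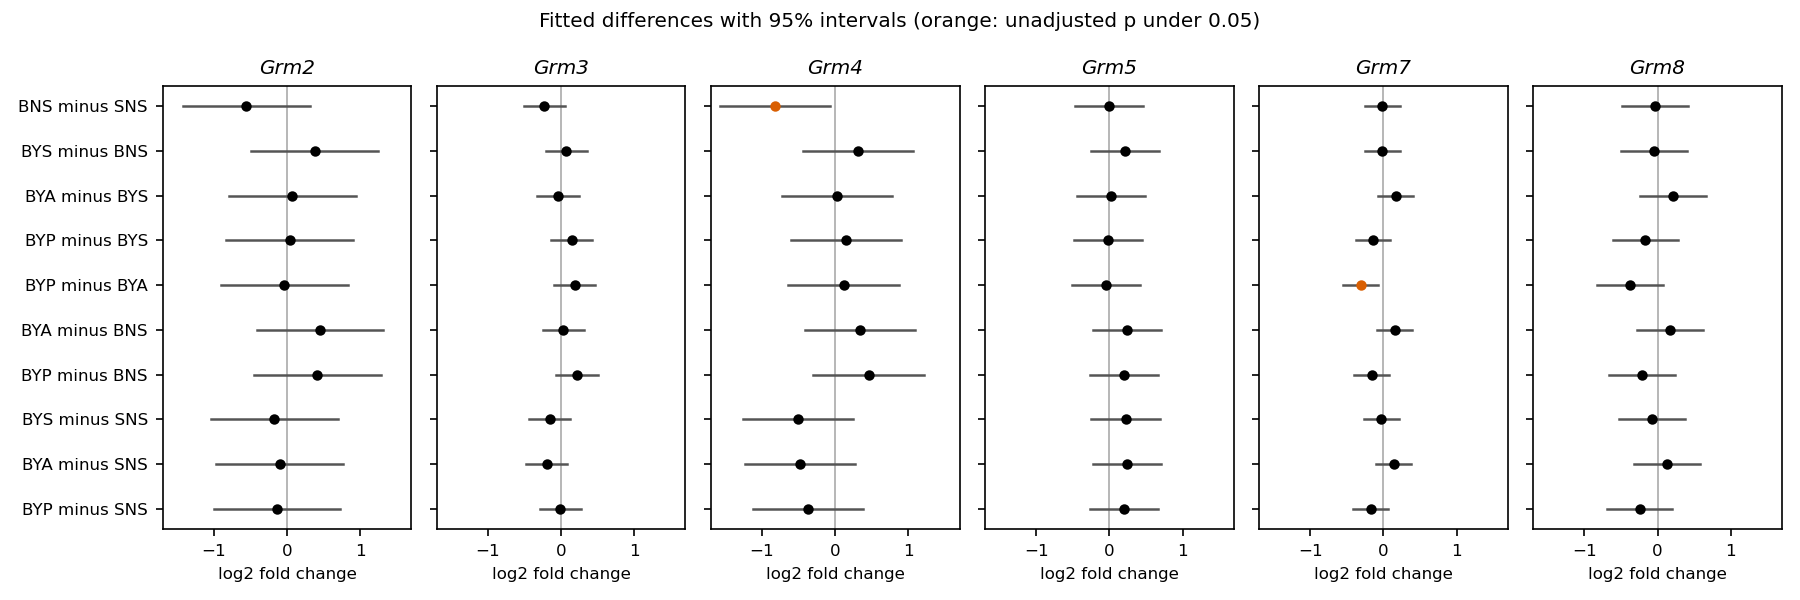
Fitted log2 fold change (horizontal) of each receptor in the 10 comparisons (rows), with 95% intervals from limma. Orange marks the 2 of 60 tests with an unadjusted p under 0.05, Grm4 for BNS minus SNS and Grm7 for BYP minus BYA. Intervals of Grm2 and Grm4 are the widest.

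In the comparison of rats with and without spasms, BYS minus BNS, the log2 differences of the 6 receptors ran from −0.05 for Grm8 to 0.38 for Grm2, with a median of 0.15 against 0.00083 over all genes. For ACTH, BYA minus BYS, they ran from −0.04 for Grm3 to 0.21 for Grm8, and for PMX53, BYP minus BYS, from −0.17 for Grm8 to 0.15 for Grm3. None of these 18 differences had an unadjusted p under 0.05, a level that 6.92%, 8.07% and 8.5% of all genes passed in these comparisons. The SE of a difference was 0.11 for Grm7, 0.13 for Grm3, 0.21 for Grm8, 0.22 for Grm5, 0.36 for Grm4 and 0.41 for Grm2. With intervals reaching 0.87 to either side for Grm2 and 0.24 for Grm7, differences that would clear the interval of Grm7 lay within that of Grm2.

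The family differed in how much the levels of its members varied between samples of the same group. After removal of the group means and the dye effect, the SD between samples was 0.656 for Grm2 and 0.568 for Grm4, 0.343 for Grm5 and 0.330 for Grm8, 0.193 for Grm3 and 0.153 for Grm7. The median over 16299 genes was 0.193. Of these genes, 99.2% had a smaller SD than Grm2 and 98.5% a smaller one than Grm4, against 50% for Grm3 and 28.7% for Grm7. Grm3 and Grm7, with the smallest SDs of the family, were also the receptors read close to the background. The part of signal strength in these SDs was not tested.

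**Figure D4:**
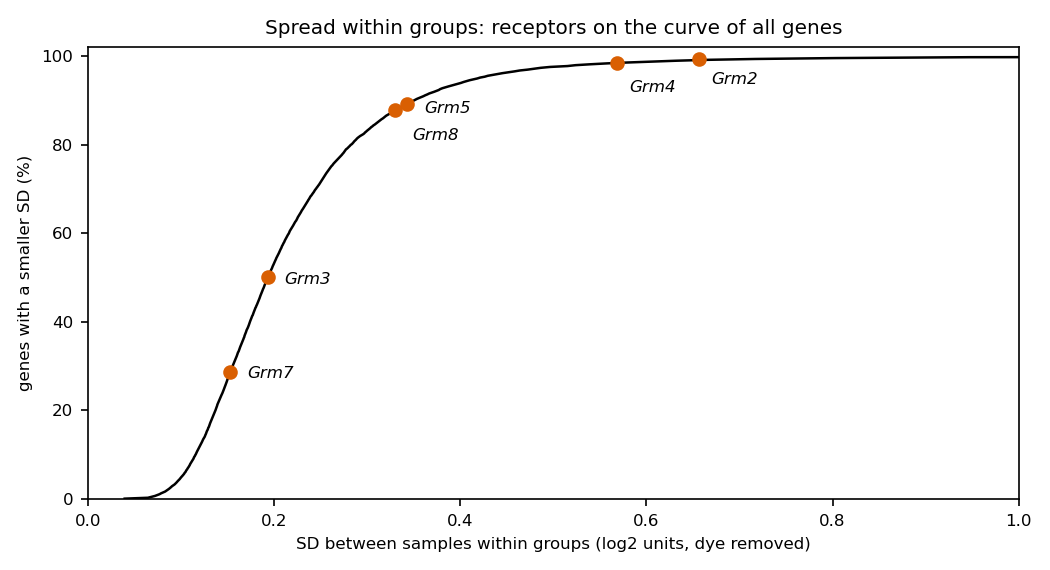
Share of genes with a smaller SD (vertical, in %) against the SD between samples within groups (horizontal, log2 units) for 16299 genes, with the 6 receptors as orange points on the curve. Grm2 and Grm4 lie at its upper end, Grm3 at its middle.

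Grm2 and Grm4 varied together from rat to rat. Over the 20 samples, r was 0.826 and rho 0.853 (permutation p = 2e-05 and 1e-05, the second being the smallest that 100000 resamples can give, and 3e-04 and 0.00015 adjusted over the 15 pairs of receptors). Without SNS replicates 1 and 3, which lie farthest from the median of Grm2, r was 0.762. It was 0.961 over the 10 Cy3 samples and 0.804 over the 10 Cy5 samples, and 0.830 over deviations from the group means. With the other Grm4 probe, r was 0.850. The permutations shuffled all 20 samples freely, although 2 rats of a group mostly shared an array. These p-values, and those with the marker lists, may therefore be too small. No other pair passed the adjustment. Grm5 and Grm7 gave r = 0.520 (rho 0.383, permutation p = 0.0189 and 0.0973, adjusted 0.142 and 0.365), which fell to 0.254 without BYA replicate 2 and BNS replicate 3. Grm2 and Grm8 gave r = −0.462 (rho −0.453, permutation p = 0.0413 and 0.0467, adjusted 0.196 and 0.318).

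Markers of oligodendrocytes, the myelin-forming glia, moved with these 2 receptors. The list has 8 genes, all kept, and its mean log2 level spanned 9.69 to 11.13 over SNS samples, where it was widest, and 10.08 to 10.76 over BNS samples. It started at 10.23 in BYS, 9.92 in BYA and 9.82 in BYP, and the highest values of BYA and BYP were 10.85 and 10.82. SNS replicate 3, the lowest of the 20 samples for Grm2 and Grm4, was also the lowest for this list, and SNS replicate 1 the highest for the list and for Grm2. The relation with Grm2 had r = 0.877 and rho 0.869 (permutation p = 1e-05 for both, adjusted 0.00078 for both over 78 relations), and r was 0.809 without SNS replicates 1 and 3. With Grm4, r was 0.709 and rho 0.707 (permutation p = 0.00064 and 0.00079, adjusted 0.0247 and 0.0308), and r was 0.734 without SNS replicates 4 and 1. Over deviations from the group means, r was 0.883 for Grm2 and 0.741 for Grm4.

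Within the list, r with Grm2 was 0.874 for Mobp, 0.864 for Mag and 0.841 for Mog, and 0.704 for Cnp, all genes of myelin or its making. It was 0.559 for Olig1, a transcription factor of the lineage, 0.112 for Mal and −0.435 for Mbp, the myelin basic protein gene. Not all of the list moved one way, therefore. As the samples are bulk tissue, fewer cells of a type and less RNA per cell cannot be told apart, and the part of these cells in the levels of Grm2 and Grm4 was not tested.

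Markers of the ventromedial hypothalamus, the neighbour of the arcuate nucleus, went the other way. All 5 were kept, and the mean level of the list lay between 10.24 and 11.20 over the groups. With Grm2, r was −0.675 and rho −0.574 (permutation p = 0.00095 and 0.00915, adjusted 0.0247 and 0.143), and with Grm4 r was −0.546 and rho −0.573 (permutation p = 0.0136 and 0.00948, adjusted 0.167 and 0.143). Fezf1 and Nr5a1, transcription factors of that nucleus, had r of −0.736 and −0.676 with Grm2. Their part in the result was not tested. Markers of the choroid plexus, the tissue that makes cerebrospinal fluid, lay highest in SNS. Of 6 genes 4 were kept, and their mean level was 9.92 to 10.19 in SNS, without overlap with BNS (9.23 to 9.60), BYS (9.15 to 9.72), BYA (9.28 to 9.74) or BYP (9.14 to 9.49). Among single genes of the whole array, 33% do not overlap between BNS and SNS. With Grm4, r was 0.557 and rho 0.544 (permutation p = 0.0116 and 0.0143, adjusted 0.167 and 0.159), and r fell to 0.314 without SNS replicates 4 and 1. Of the choroid plexus genes, Otx2 had r = 0.678 with Grm4, Kcne2 0.314, Ttr 0.266 and Folr1 0.189. The part of this tissue in the differences of Grm4 and of the genes below from SNS was not tested. For Grm5, the lowest p was with markers of ependyma and tanycytes (r = −0.634, rho −0.562, permutation p = 0.00267 and 0.011, adjusted 0.0521 and 0.143), and no relation of Grm3, Grm5, Grm7 or Grm8 with a marker list or with signal over background passed the adjustment.

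**Figure D5:**
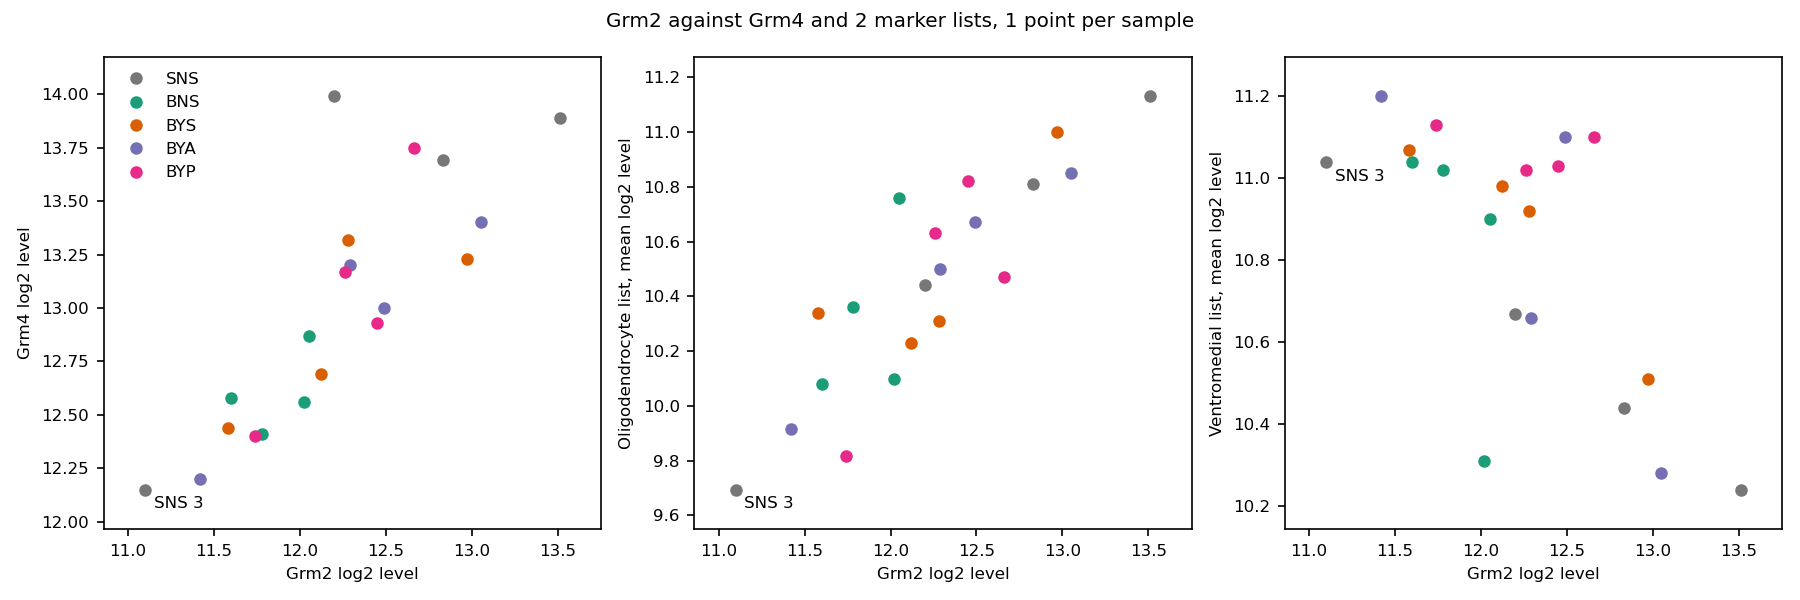
Grm4 level, mean level of the oligodendrocyte list and mean level of the ventromedial hypothalamus list (vertical axes, log2) against the Grm2 level (horizontal, log2), 1 point per sample, coloured by group. Points rise from SNS replicate 3 in the left and middle panels, with r of 0.826 and 0.877, and fall in the right panel.

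Across the 20 samples, each receptor was set against every other gene without a missing value, as a description in which the samples of a group share a slide. Grm2 was most like Nrip3 (r = 0.956), the unnamed transcript TC630587 (0.932) and Inadl (0.921), a scaffold of cell polarity. Grm4 was most like LOC361016 (0.860), Sim1 (0.851), a transcription factor of the neighbouring paraventricular nucleus, and Grm2. Grm5 was most like Negr1 (0.866) and Iglon5 (0.829), a pair of neuronal cell adhesion proteins of one family, and Wdr5 (0.809). Grm8 was most like Vstm2a (0.853), Rev3l (0.830) and Gpr135 (0.819). For the receptors read close to the background, the highest values were lower, with Insc (0.757), Ublcp1 (0.755) and the probe A_64_P020946 (0.738) for Grm7, and Tp53inp2 (0.720), Plekhm1 (0.709) and Mtm1 (0.695) for Grm3.

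Genes that act with these receptors were followed by 6 lists, of which 84 genes were kept. For BNS minus SNS, limma called 5 higher and 15 lower (23.8%, against 28.6% of all genes). It called 9 higher and 3 lower for BYS minus SNS (14.3%, against 27.1%), 9 and 6 for BYA minus SNS (17.9%, against 31.3%) and 9 and 4 for BYP minus SNS (15.5%, against 28.9%). These 4 comparisons share the SNS samples. Between the groups exposed to betamethasone, 2 genes were called, both for BYP minus BNS, beside 1.5% of all genes. Over all comparisons these were 62 calls, of which 27 held under the array block, 27 when channels were scaled to one median and 12 with the processed signals. Under the array block, 7 genes were called for BNS minus SNS, 4 for BYS, 11 for BYA and 5 for BYP, and none for BYP minus BNS. The median log2 fold change of the 84 genes was −0.06 for BNS minus SNS and 0.08 for BYS minus BNS, against −0.04 and 0.00083 over all genes.

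On the group I side, Plcb1, the phospholipase C isoform downstream of Gq, rose from a mean of 8.22 ± 0.137 (SD, n = 4) in SNS to 8.63 in BNS, 8.77 in BYS, 8.68 in BYA and 8.82 in BYP. Its log2 fold changes against SNS ran from 0.41 to 0.61, with limma adjusted p of 0.00368 or lower, and of 0.021 or lower with the array as a random block. Itpr2, an inositol trisphosphate receptor of calcium stores, rose in BYS, BYA and BYP by 0.42, 0.42 and 0.64. Dgkz, a kinase that removes diacylglycerol, rose in BYS and BYA by 0.62 and 0.70. Under the array block, Itpr2 passed for BYP alone and Dgkz for BYA alone. Neither gene passed with the processed signals. Under these signals Plcb1 kept its calls for BYS and BYP (limma adjusted p = 0.0311 and 0.00846). It lost those for BNS and BYA, at 0.417 and 0.498 (limma adjusted p = 0.177 and 0.117). Of the 14 genes of this list, 2 were called for BNS minus SNS, 3 each for BYS and BYA, and 2 for BYP.

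On the side of Gi/o and adenylyl cyclase, Prkaca, a catalytic subunit of protein kinase A, rose in all 4 groups against SNS, by 0.70 in BNS, 0.69 in BYS, 0.79 in BYA and 0.76 in BYP on the log2 scale (adjusted p from 2.22e-05 to 9.46e-05, limma). No SNS value (10.96 to 11.43) reached the lowest of the other groups, 11.80. All 4 calls held with the array as a block (limma adjusted p from 0.000284 to 0.00182), and 1, that for BYA, with the processed signals. Prkacb, the other catalytic subunit, rose by 1.01 in BYS, 1.35 in BYA and 1.36 in BYP. Kcnj6, a potassium channel subunit opened by G protein beta-gamma, rose by 0.47 in BNS, 0.57 in BYS and 0.53 in BYP. Gnai3, a Gi alpha subunit, fell by 0.50 in BYA and by 0.39 in BYP, but stood at 0.05 and 0.04 with the processed signals. Prkacb and Gnai3 passed under the array block for BYA alone, and Kcnj6 in no group. Of 15 genes kept, 5 were called for BNS, 3 for BYS, 3 for BYA and 4 for BYP against SNS.

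Of 20 genes for scaffolds and binding partners, 5 were called for BNS minus SNS, 1 higher and 4 lower. Calm3, a calmodulin gene, rose from a mean of 13.71 ± 0.464 (SD, n = 3, 1 outlier spot left out) in SNS to between 14.79 and 14.85 in the other groups, with adjusted p from 8.14e-06 to 1.45e-05 by limma, and from 9.39e-05 to 0.000194 with the array as a block. With each channel scaled to one median the calls for BNS and BYP were lost (adjusted p = 0.117 and 0.176). With the processed signals the call for BYA was lost (limma adjusted p = 0.0678). Tamalin, a scaffold that binds group I receptors, fell by 0.40 in BNS and by 0.39 in BYP. Grip1, a postsynaptic PDZ protein, fell by 0.44 in BNS, and Cav1, the caveolin gene, fell by 0.77 in BYA. The calls of Grip1 and Cav1 held under the array block and those of Tamalin did not (limma adjusted p = 0.0581 and 0.0624). With the processed signals none of these calls held, with Grip1 at −0.31 and Cav1 at −0.23 (limma adjusted p = 0.329 and 0.345). With each channel scaled to one median, the call of Grip1 was also lost (limma adjusted p = 0.0695). So were both calls of Tamalin, at −0.27 in BNS and −0.03 in BYP (limma adjusted p = 0.4 and 0.915). Markers of endothelium, which expresses Cav1, had their lowest values in BYA, where the mean level of 4 genes was 9.29 to 9.77. This level was 9.93 to 10.16 in SNS, 9.663 to 9.935 in BNS, 9.647 to 9.929 in BYS and 9.79 to 10.12 in BYP. Mean Cav1 was 11.1 in BYA, 11.87 in SNS, 11.67 in BNS, and 11.75 in both BYS and BYP. The part of endothelium in the Cav1 result was not tested.

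Among 12 genes for desensitisation and RGS proteins, which speed up the shut-off of G proteins, Rgs14 rose in all 4 groups, by 1.04 in BNS, 0.89 in BYS, 0.78 in BYA and 0.56 in BYP (limma adjusted p from 0.00111 to 0.0474). Rgs17 fell in all 4, by 0.43, 0.34, 0.36 and 0.36 in the same order. Rgs8 fell by 0.42 in BNS, and Arrb1, an arrestin, rose by 0.56 in BYA. In the fit with the array block, Rgs14 lost its call for BYP (limma adjusted p = 0.153), Rgs17 for BYS and BYP (0.0801 and 0.060), and Rgs8 its only one (0.0807). With the processed signals Rgs14 and Rgs17 each lost all 4 calls. Rgs14 stood at 0.76, 0.59, 0.37 and 0.20 in BNS, BYS, BYA and BYP (limma adjusted p from 0.0602 to 0.644). Rgs17 stood at −0.08, −0.01, −0.03 and 0.10 in the same order. When each channel was scaled to one median, the call of Rgs14 held for BYS alone. The call of Arrb1 held under the array block (limma adjusted p = 0.0448). It was lost with one median and with the processed signals (limma adjusted p = 0.181 and 0.0962).

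Of 14 effectors of receptor-dependent translation and plasticity, Ppp2ca, a catalytic subunit of protein phosphatase 2A, rose in BYS, BYA and BYP by 0.78, 0.69 and 0.56, with 3 of 4 SNS samples measured. It was −0.03 for BYP with each channel scaled to one median, and no call held with the array as a block (limma adjusted p from 0.0547 to 0.158). Eef2, the elongation factor, fell from 14.53 in SNS to 13.90 in BNS (by 0.63, adjusted p = 0.00256) and was higher again in BYP, by 0.59 over BNS (limma adjusted p = 0.0385). The other gene called for BYP minus BNS was Arc, an immediate early gene of synaptic plasticity, named after its values were seen, at 1.07 (adjusted p = 0.0473). Its mean was 9.63 in BNS (9.36 to 9.94), and its level lay between 10.45 and 10.89 in all BYP samples. BYS (10.31) and BYA (10.54) had means between these. Eif4ebp1, an inhibitor of cap-dependent translation, fell by 0.48 in BYA against SNS. Of these calls, that of Eef2 for BNS minus SNS held with the array as a block (limma adjusted p = 0.0263). With the processed signals it did not (−0.27, limma adjusted p = 0.262). Under the array block the limma adjusted p was 0.251 and 0.209 for Eef2 and Arc in BYP minus BNS, and 0.0993 for Eif4ebp1.

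Of 9 genes for glutamate release and uptake, Glud1, glutamate dehydrogenase, fell in all 4 groups against SNS, by 0.51 in BNS, 0.49 in BYS, 0.69 in BYA and 0.64 in BYP (limma adjusted p from 0.00355 to 0.0174). Its SNS and BYA levels rest on 2 samples each, since the other spots were outliers. Slc1a2, the main glutamate transporter of astrocytes, fell by 0.79 in BNS (adjusted p = 0.0166), from a mean of 11.95 to 11.16. Glud1 passed under the array block for BYA and BYP (limma adjusted p = 0.0225 and 0.0271) but not for BNS or BYS, and Slc1a2 did not pass (0.0866). With the processed signals Glud1 stood between −0.08 and 0.10 in all 4 groups. No other gene of this list was called in any comparison.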

How the data were processed

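The authors deposited, for each of 11 arrays on 6 slides, the intensities that Agilent Feature Extraction wrote (version 10.7.3.1 per the labels, 11.5.1.1 per the file headers, build rn4), that is mean spot signal, median local background and processed signal, with 0 or 1 flags per spot. The 82 columns of another series were not used. Each channel was taken as 1 rat. Background was corrected by normexp (offset 50), the 20 channels were brought to one distribution by quantile normalization of log2 values, and spots marked as outliers (1.18%) left out. The filter kept probes with a share of 0.5 or more of their spots well above background in each of the 4 samples of some group. Kept probes of a gene with no missing value were averaged. Of 30367 probes, 18643 (61.4%) were named through RefSeq accessions. One limma 3.58.1 fit (R 4.3.3) of 20 samples, with dye as covariate, gave the 10 comparisons, with Benjamini-Hochberg adjustment over all genes and two-sided tests. The number of arrays limits the precision. Permutations numbered 100000. The fit was tested on simulated data in which samples were independent, so that test did not cover samples that share an array.

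The members, the lists and the tests were chosen with earlier results of these data known. Named are all members, from each list up to 4 genes called in the most comparisons, and the 3 genes most like each member. The relations between receptors and with marker lists were added after seeing the data. The 12 marker lists were arcuate neurons, neurons, astrocytes, oligodendrocytes, microglia, ependyma and tanycytes, choroid plexus, endothelium, thalamus, ventromedial hypothalamus, pituitary and red blood cells. Further genes of the family, some genes that this rule or the lists name and the probe sequence of 1 receptor are not reported here, and sex-linked genes were not analysed here. Replicate numbers of the labels did not pair samples across groups (mean correlation of deviations 0.0031, from −0.239 to 0.28), so the replicate number was not used as a block. Samples of a group on one array were more alike (r from 0.986 to 0.995 over genes, 9 pairs) than those on different arrays (0.973 to 0.991, 21 pairs). The array as a random block was run as an alternative, and its values stand beside the results it changes.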

Additional observations from a re-analysis of the deposited data

Results flagged for a closer look

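The level of 1 sample stood far from the other 3 in 2 of the 30 combinations of receptor and group (chance flags about 1 in 20). Grm4 in SNS replicate 3 was 12.15, where the next value of the group was 13.69. Grm7 in BNS replicate 3 was 8.28, where the next value was 8.55.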

How the results depend on the processing

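In 5 of the 10 comparisons (those among BNS, BYS, BYA and BYP other than BYP minus BYA) 0 receptors were called under every alternative run, including the replicate block (replicate number as a fixed block), which gave 0 calls in all 10. With the array as a random block (consensus correlation 0.365), 0 receptors were called, the unadjusted p of Grm4 for BNS minus SNS rose from 0.0333 to 0.0969, and the genes called on the whole array fell from 4881 to 2595 in that comparison and from 4633 to 2377 for BYS, 5343 to 3310 for BYA and 4938 to 2647 for BYP minus SNS. With the slide as a random block, nearly the same thing as the group (consensus correlation −0.128), 1 receptor was called for BNS minus SNS (Grm4, −0.825) and 1 for BYP minus BYA (Grm7, −0.321), beside 47.7% and 6% of all genes. With the scanner software's processed signals, 1 was called for BYP minus SNS (Grm7), beside 15.9%. The methods' t-test at 0.05, with or without its fold threshold, called 1 for BNS minus SNS (Grm3) and none after adjustment. Leaving out each sample in turn gave 0 to 2 calls for BNS minus SNS, 0 to 1 for BYS minus SNS, 0 to 1 for BYA minus SNS and 0 elsewhere, all from SNS replicate 3. Without it, −1.04 for Grm2 and −1.25 for Grm4 passed the threshold, while without SNS replicate 1 Grm2 stood at −0.181 and Grm4 at −0.629.

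The difference of Grm4 between BNS and SNS turned to 0.37 with the probe A_64_P163070, alone or as the brightest probe. That of Grm5 between BYA and SNS turned to −0.0204 with processed signals and −0.0458 in Cy3 samples. The cause was not tested. Scaling each channel to one median put the median of all genes at up to −0.172 (BYP minus BYS) and called 2820 genes there in place of 6. This scaling called 1446, 1401, 2654 and 4900 for BYS, BYA, BNS and BYP minus SNS. Under it the lowest-p differences of Grm2, Grm3, Grm4, Grm7 and Grm8 were −0.949, −0.105, −1.25, −0.0809 and −0.593, and with processed signals those of Grm3, Grm4 and Grm7 were −0.721, −0.463 and −0.483. Grm5 for BYA minus SNS was 0.537 with loess on 9 arrays and 0.0687 without BYA replicate 2. Of the 62 calls of pathway genes, an alternative chosen after seeing the data kept 27 with the array as a block, 27 with one median (1 turned) and 12 with processed signals (5 turned). The r of Grm2 and Grm4 stayed between 0.762 and 0.961 over all alternatives. Grm3 and Grm7 lay near the background, which limits what these arrays can show of them. Some pathway genes had SNS means lower still, with 7.79 for Arrb1, 8.22 for Plcb1, 8.33 for Itpr2 and 8.42 for Tamalin. SNS was also the group with the lowest median ratio of signal to background. The part of signal strength in the differences of these genes from SNS was not tested.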
